A study of Mus musculus with 2 samples.

Results

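The genes described here are Cx3cr1, Csf1r, Csf1, Tgfbr1, Tgfbr2, Tgfb1 and Smad3, which belong to 3 signalling routes that sustain microglia: fractalkine, colony-stimulating factor 1 and TGF-beta. They were chosen by symbol, 7 of the 27998 genes in each count matrix, and were followed in microglia, perivascular macrophages and other macrophages of a control and a light-damaged mouse retina. The retinas came from male mice of the strain labelled CB6F1. Cx3cr1-YFP, 8 months of age, which carry a yellow fluorescent protein (YFP) reporter of Cx3cr1. Live YFP-positive cells were sorted, a choice made on Cx3cr1 itself, so that its RNA is present in most cells is no finding. Its levels and their ratios between classes and libraries likewise describe only cells that passed this sort. The labels do not say how the reporter sits in the gene, and UMIs of an intact and a reporter-carrying allele cannot be told apart here. The control mice had no light damage. The light-damaged mice were dark-adapted overnight, had their pupils dilated with atropine and phenylephrine, and were exposed to LED light of 10 klux for 4 h, with 5 days of recovery. Retinas of 5 to 8 mice were pooled in each group and gave a single library. Differences between the 2 libraries therefore have no replicate check and could not be tested.

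The chemokine receptor CX3CR1 is carried by microglia and some other macrophages, and its ligand fractalkine (CX3CL1) is made by neurons, from which proteases can shed it. CSF1R is a receptor tyrosine kinase that binds CSF1 and interleukin-34, and microglia depend on its signal to survive. TGF-beta 1 is secreted in a latent form; once released it binds TGFBR2, which recruits and activates TGFBR1, and the activated receptor phosphorylates SMAD2 and SMAD3, which enter the nucleus with SMAD4. Microglia deprived of this signal are known to lose much of their characteristic expression programme.

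Levels are given as unique molecular identifiers (UMIs) of the gene per 1000000 UMIs of all cells of a class (CPM). Brackets hold the 95% interval that counting error alone allows, exact Poisson for a level and exact binomial for a ratio or a share. A gene was counted as higher or lower when 2 levels differed more than 1.5-fold and at least 1 of them reached 20 CPM. Microglia were cells with at least 20 UMIs per 10000 of the markers P2ry12, Tmem119, Siglech, Gpr34 and P2ry13 together. Perivascular macrophages had at least 10 UMIs per 10000 of Mrc1, F13a1, Cd163, Lyve1 and Cbr2, and other macrophages had under 10 of either set. The control library gave 3374 microglia, 53 perivascular and 244 other macrophages among 3820 kept cells, and the light-damaged library 4385, 84 and 1171 among 6427. A further 144 control and 785 light-damaged cells lay between the limits, and 5 and 2 passed both limits and were left out. The median depth was 4779.5, 7059 and 5230 UMIs per cell in the control classes and 6775, 9318.5 and 9809 in the light-damaged classes. The libraries shared 47 barcodes.

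The class labels held for microglia by markers outside the limit. Sall1 was at 107 CPM in control and 125 CPM in light-damaged microglia and at 5.03 to 7.46 CPM in the other classes, and Olfml3 at 1241 and 1439 CPM against 178 to 358 CPM. For perivascular macrophages, 6 markers outside the limit (Pf4, Ms4a7, Cd209f, Stab1, Folr2 and Clec10a) summed to 2976 and 2342 CPM in that class, against 86.6 and 106 CPM in microglia and 1099 and 941 CPM in other macrophages; Cd209f was at 0 in the light-damaged class. The other macrophages were a mixture. In the control library, 59 of the 244 cells had fewer than 20 UMIs per 10000 of 6 genes common to myeloid cells (Tyrobp, Fcer1g, Laptm5, Ctss, Cd52, Lyz2) and were led by rod genes such as Gngt1 and Pdc, so the name does not hold for them; in the light-damaged library this was so for 23 of 1171. The remaining pan-myeloid cells were led by Cxcl1, Cxcl2, Cd74 and H2-Aa in the control library (185 cells) and by Cd74, H2-Aa, Gpnmb and Spp1 in the light-damaged library (1148 cells). The members' levels in other macrophages are therefore given also for the pan-myeloid cells alone where this bears on a comparison; counts of pathway genes refer to the whole class. The 7 monocyte markers summed to 61.2 CPM in the control other macrophages, with Chil3 and Vcan among those at 0, and to 160 CPM in the light-damaged ones. The 7 dendritic cell markers summed to 5.97 and 15.8 CPM. Differences in these lists between the libraries stand beside every comparison of other macrophages, and their part in it was not tested. The microglia markers of the limit were themselves lower in light-damaged microglia, 4168 against 6572 CPM, so the same limit takes a different range of cells from each library, and class sizes are not compared.

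Cx3cr1, on chromosome 9 (mm10 positions 119901616 to 120069879, minus strand), was highest in microglia in both libraries and had nearly the same level in microglia with and without light damage. In microglia it reached 952 CPM (937 to 967) in the control and 939 CPM (929 to 950) in the light-damaged library, a ratio of 0.99 (0.97 to 1.01). Perivascular macrophages held 189 CPM (147 to 238) and 254 CPM (220 to 291), and other macrophages 186 CPM (163 to 210) and 322 CPM (313 to 332). Cx3cr1 was thus 5.04-fold and 3.70-fold lower in perivascular macrophages than in microglia of the same library, and 5.12-fold and 2.91-fold lower in other macrophages (5.14-fold and 2.88-fold in their pan-myeloid cells). In the control library the perivascular and other macrophages did not differ beyond their counting error (ratio 0.98, 0.75 to 1.30), and in the light-damaged library other macrophages stood 1.27-fold higher (1.10 to 1.47).

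Between the libraries, Cx3cr1 was 1.74-fold higher (1.53 to 1.98) in other macrophages of the light-damaged retina. It was the only 1 of the 5 tested members past 1.5-fold in that class, where 51.3% of 5861 genes were past it in either direction and 22.9% were higher. A single control barcode rich in vascular transcripts held 48 of the 249 Cx3cr1 UMIs of the class. Without the barcode with the most Cx3cr1 UMIs in each library the ratio was 2.10 (1.82 to 2.43), and among pan-myeloid cells it was 1.76 (1.52 to 2.04). With cells carrying rod transcripts left out of both libraries its log2 value was 0.58, just under the threshold. The share of these cells with a Cx3cr1 UMI was 38.9% and 76.2% as sequenced, and 27.8% (21.4 to 34.9) and 48.5% (45.6 to 51.4) with every cell thinned to 2700 UMIs, after which 180 of the 244 control cells remained. Barcodes low in myeloid genes gave 6.45% (2 of 31 cells) and 0% (0 of 23, up to 14.8%) at that depth, at a median of 2717 and 4711 UMIs before thinning. Cells between the limits differed likewise, with 383 CPM in the control and 598 CPM in the light-damaged library.

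Within microglia, Cx3cr1 was higher in cells with a higher marker sum. It stood at 548 CPM in cells with 20 to 25 marker UMIs per 10000 and at 1032 CPM in those with 60 to 100 in the control library, and at 708 and 1161 CPM in the light-damaged library. Cells just outside the microglia limit, at 15 to 20, held 411 and 665 CPM. Within the same band the light-damaged cells had more Cx3cr1 than the control cells. The ratio was 1.14 (1.11 to 1.18) at 30 to 60 marker UMIs and 1.13 (1.08 to 1.17) at 60 to 100, the bands with the most cells, against 0.99 over all microglia. In the smaller bands the ratios were 1.29 (1.13 to 1.48) at 20 to 25 and 1.54 (1.33 to 1.79) at 25 to 30. Over 100 the ratio was 1.12 (0.90 to 1.38), within counting error. This comparison within bands was added after the data had been seen. The marker sum was itself lower in light-damaged microglia, with a median of 41.2 against 66.0 UMIs per 10000 in the control. A band therefore takes different parts of the 2 libraries: the 60 to 100 band held 1637 control and 660 light-damaged cells. The same limit applies to every comparison within bands below.

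**Figure D1:**
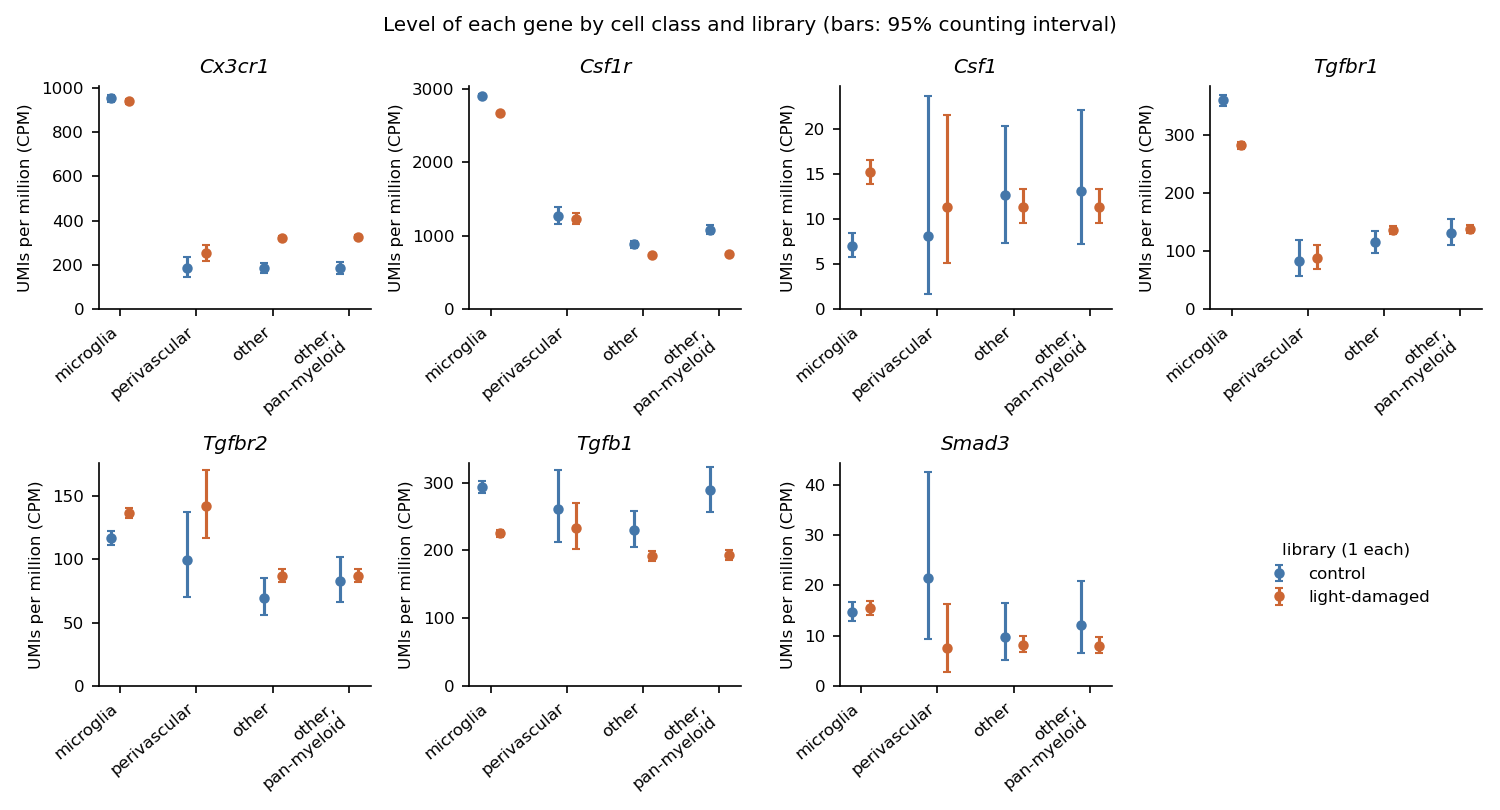
Level of each gene in CPM (vertical axes, from 0) in the 3 cell classes and in the pan-myeloid other macrophages, with control in blue and light-damaged in orange, 1 library each, and bars for the 95% counting interval. Cx3cr1, Csf1r and Tgfbr1 stand highest in microglia of both libraries, and Tgfb1 and Tgfbr2 lie closer together across the classes.

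Csf1r, the receptor for CSF1 and interleukin-34, was present in nearly every microglial cell and was highest in that class. It reached 2903 CPM (2877 to 2929) in control and 2673 CPM (2655 to 2691) in light-damaged microglia, 1.09-fold lower (1.07 to 1.10) after light damage. At 2700 UMIs per cell, 99.9% of control and 99.7% of light-damaged microglia had a Csf1r UMI. Perivascular macrophages held 1270 CPM (1158 to 1390) and 1231 CPM (1155 to 1311), 2.29-fold and 2.17-fold lower than microglia. Other macrophages held 884 CPM (834 to 936) and 743 CPM (728 to 758), 3.28-fold and 3.60-fold lower than microglia, or 2.67-fold and 3.56-fold in their pan-myeloid cells. The order microglia, perivascular, other macrophages was the same in both libraries, with no overlap of counting intervals between neighbours. Barcodes low in myeloid genes held 105 and 71.1 CPM of Csf1r, and 22.6% and 17.4% of them had a UMI at 2700 UMIs per cell.

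In pan-myeloid other macrophages Csf1r was 1.45-fold lower (1.36 to 1.54) in the light-damaged library, 750 against 1087 CPM, whereas over the whole class it was 1.19-fold lower (1.12 to 1.26). Within microglia Csf1r was higher at a higher marker sum, with 2004 CPM at 20 to 25 marker UMIs and 3092 CPM at 60 to 100 in the control library, and 2054 and 3161 CPM in the light-damaged library. Within the same band the libraries differed little, with ratios of 1.03 (1.01 to 1.05) at 30 to 60 and 1.02 (1.00 to 1.04) at 60 to 100.

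**Figure D2:**
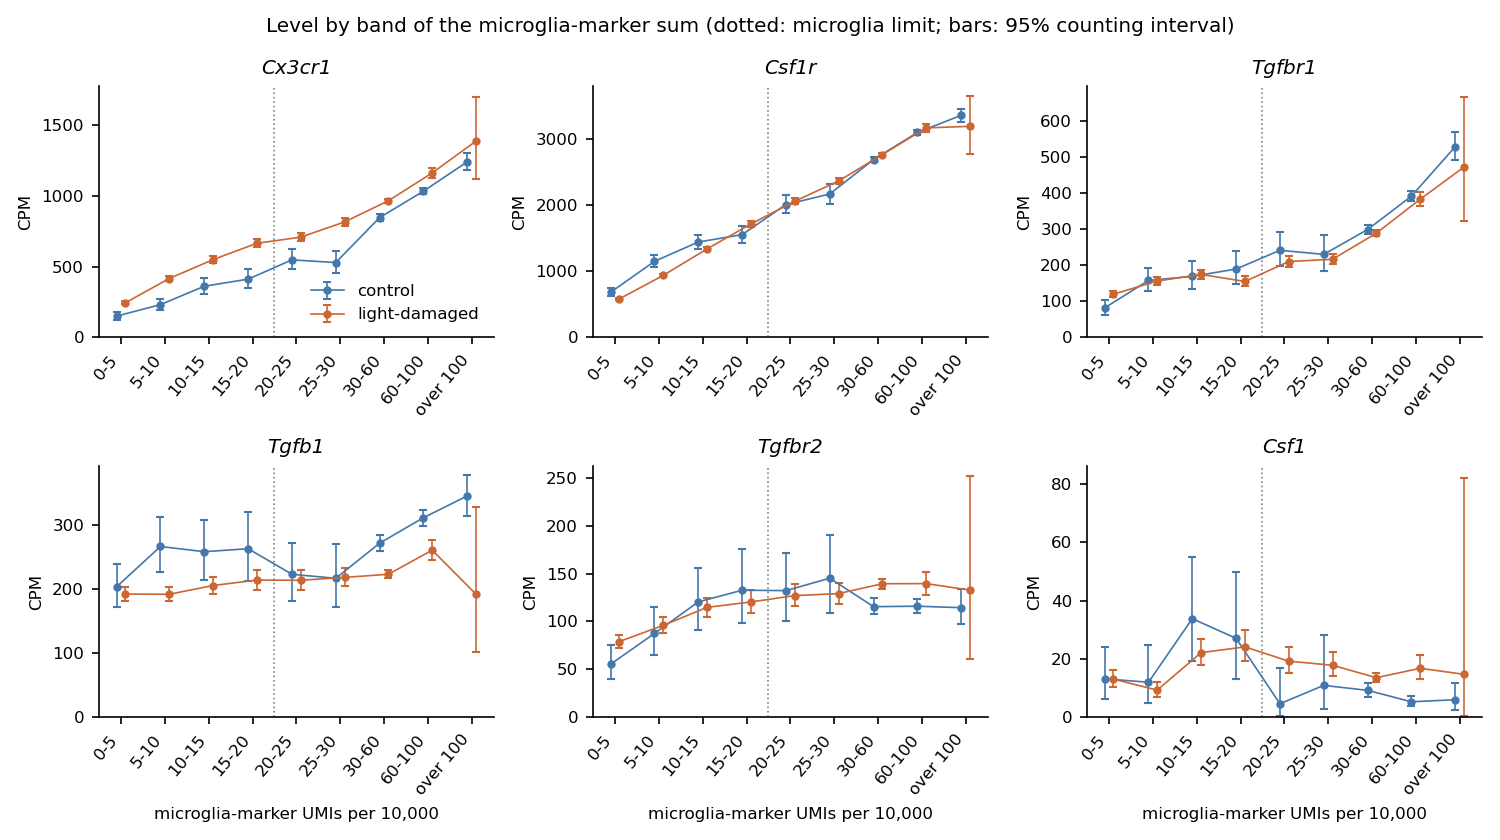
CPM of 6 of the genes (vertical axes, from 0) in cells grouped by their summed microglia-marker UMIs per 10000 (horizontal axis; the dotted line is the microglia limit), control in blue and light-damaged in orange, bars for the 95% counting interval. Cx3cr1, Csf1r and Tgfbr1 are higher at high marker sums in both libraries; the light-damaged band over 100 holds only 14 cells, and in the 60 to 100 band Cx3cr1 is 1161 CPM in the light-damaged and 1032 CPM in the control cells while Tgfbr1 is 383 and 391 CPM.

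Csf1, the ligand of CSF1R, was a rare transcript that was higher in light-damaged microglia. Its gene lies on chromosome 3 (mm10 positions 107741048 to 107760469, minus strand). Control microglia held 116 UMIs in 103 cells, or 7.02 CPM (5.80 to 8.42), and light-damaged microglia 494 UMIs in 357 cells, or 15.2 CPM (13.9 to 16.6). The ratio was 2.16 (1.76 to 2.67). Both levels lie under 20 CPM, so Csf1 was not among the members counted; with a minimum of 5 CPM, set after seeing the data, it would be the only microglial member past 1.5-fold. The ratio was 1.47 (1.11 to 1.98) at 30 to 60 marker UMIs and 3.16 (2.11 to 4.77) at 60 to 100. No single cell carried it: the barcode with the most Csf1 UMIs had 3 in the control and 9 in the light-damaged microglia. Perivascular macrophages held 3 and 9 Csf1 UMIs, too few to compare. Other macrophages held 12.7 CPM (7.39 to 20.3) and 11.4 CPM (9.60 to 13.4), a ratio of 0.90 (0.54 to 1.58), or 0.86 (0.50 to 1.62) in their pan-myeloid cells.

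Csf1 had the highest ratio of all members between microglia ranked high and low by inflammatory or immediate-early genes. Microglia were ranked by the sum of 8 inflammatory genes (Ccl3, Ccl4, Tnf, Il1b, Il1a, Cxcl2, Nfkbia, Ccl2) and split into tertiles. The upper tertile held 10.1 CPM of Csf1 and the lower 4.94 CPM in the control library, a ratio of 2.04 (1.26 to 3.34). In the light-damaged library these were 24.6 and 8.79 CPM, a ratio of 2.80 (2.21 to 3.57). Ranking by immediate-early genes such as Fos and Egr1 gave Csf1 ratios of 2.59 (1.59 to 4.33) and 2.72 (2.15 to 3.46). Ranking by disease-associated genes such as Spp1, Cst7 and Lpl gave 1.19 (0.75 to 1.89) and 1.74 (1.39 to 2.19). In light-damaged other macrophages the inflammatory tertiles held 78 and 14 Csf1 UMIs, or 22.0 and 2.89 CPM, a ratio of 7.61 (4.27 to 14.6). Ranked by interferon genes, the same cells held less Csf1 in the upper tertile, 18 against 78 UMIs or 4.16 against 20.9 CPM, a ratio of 0.20 (0.11 to 0.34). The upper inflammatory tertile had less Cx3cr1, 183 against 398 CPM, and less Tgfbr1, 95.7 against 154 CPM. The inflammatory tertiles share a library and differ in depth, with a median of 8471.5 UMIs per cell in the upper and 11170 in the lower one, and whether depth contributes was not tested. The inflammatory genes as a set summed to 4988 CPM in control and 3929 CPM in light-damaged microglia, so Csf1 and this set differed in opposite directions between the libraries.

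**Figure D3:**
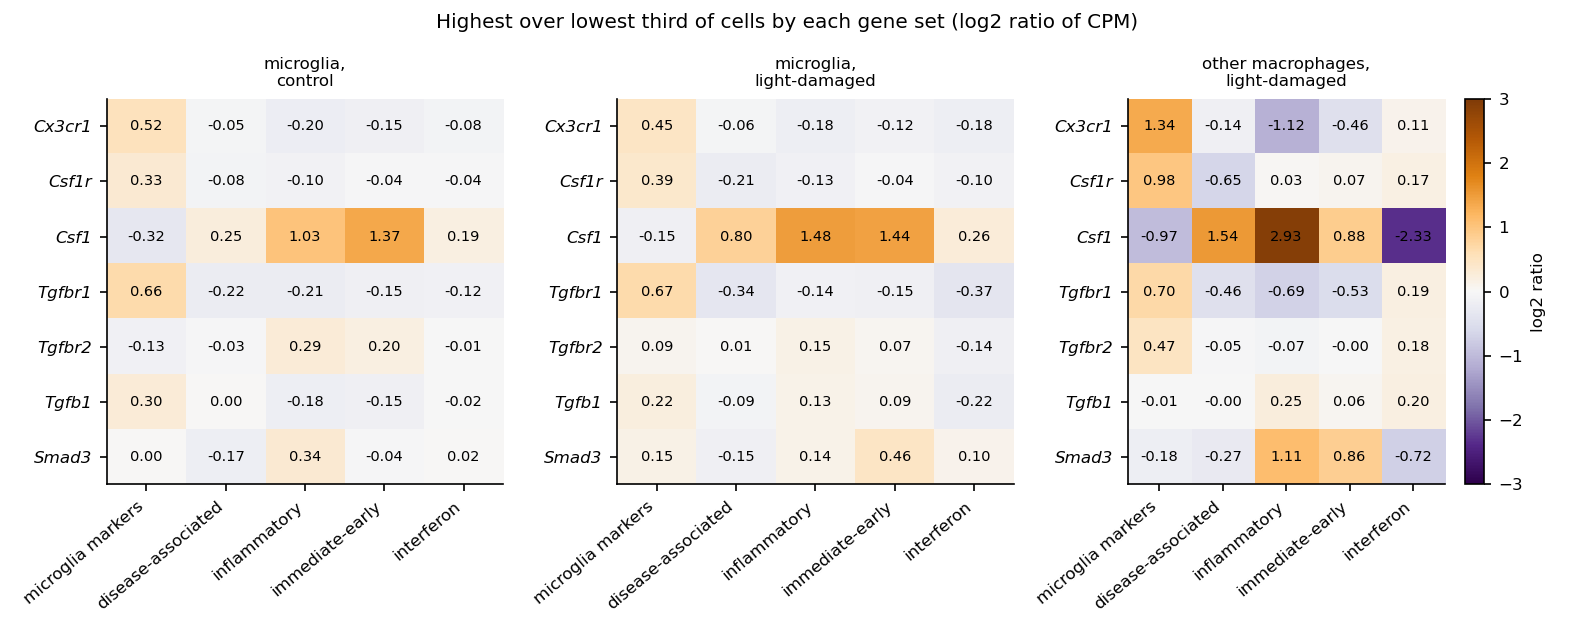
Log2 ratio of CPM between the upper and the lower tertile of cells (numbers in the boxes) for each gene (rows) when cells are ranked by the summed UMIs of a gene set (columns), in control microglia, light-damaged microglia and light-damaged other macrophages. Csf1 reaches 1.03 and 1.48 under the inflammatory ranking of microglia and 2.93 in other macrophages, while Cx3cr1 and Tgfbr1 reach 0.45 to 0.67 under the microglia-marker ranking of microglia.

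Tgfbr1, the signalling type I receptor of TGF-beta, was highest in microglia and was lower in the microglia of the light-damaged library. It lies on chromosome 4 (mm10 positions 47353222 to 47414931, plus strand). Microglia held 358 CPM (349 to 368) in the control and 282 CPM (276 to 287) in the light-damaged library, 1.27-fold lower (1.23 to 1.32). Perivascular macrophages held 83.6 CPM (56.8 to 119) and 88.0 CPM (68.6 to 111), 4.29-fold and 3.20-fold lower than microglia. Other macrophages held 115 CPM (97.5 to 135) and 136 CPM (130 to 143), 3.12-fold and 2.07-fold lower than microglia, or 2.72-fold and 2.04-fold in their pan-myeloid cells. Other macrophages held 1.37 times (0.93 to 2.09) the level of perivascular macrophages in the control library, within counting error. In the light-damaged library they held 1.55 times that level, and perivascular macrophages 0.65 times (0.50 to 0.82) the level of other macrophages.

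Among the members, Tgfbr1 had the highest ratio between microglia ranked high and low by the microglia markers. Its level in the upper tertile of that sum was 1.58 times (1.49 to 1.69) that in the lower tertile in the control and 1.59 times (1.51 to 1.67) in the light-damaged library, against 1.44 and 1.37 for Cx3cr1 and 1.26 and 1.31 for Csf1r. Within bands of the marker sum the libraries did not differ beyond counting error: Tgfbr1 was at 289 against 299 CPM at 30 to 60 marker UMIs (1.03-fold lower, 0.98 to 1.09) and at 383 against 391 CPM at 60 to 100 (1.02-fold lower, 0.96 to 1.09). In the smaller bands the ratios were 0.87 (0.71 to 1.08) at 20 to 25 and 0.94 (0.75 to 1.19) at 25 to 30. Because the marker sum was lower in light-damaged microglia, a band does not hold like parts of the libraries. Whether Tgfbr1 differs between like cells was not tested. Light-damaged microglia in the upper tertile of interferon genes such as Ifit3 and Irf7 held 246 CPM of Tgfbr1 and those in the lower tertile 317 CPM, a ratio of 0.77 (0.74 to 0.81); the same ratio in control microglia was 0.92 (0.86 to 0.98).

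Tgfbr2, the type II receptor that binds the ligand, did not differ beyond counting error between perivascular macrophages and microglia. The gene lies on chromosome 9 (mm10 positions 116084293 to 116175360, minus strand). Its level was 117 CPM (112 to 122) in control and 137 CPM (133 to 141) in light-damaged microglia, 1.17-fold higher (1.11 to 1.24) in the latter. Perivascular macrophages held 99.7 CPM (70.2 to 137) and 142 CPM (117 to 171), with ratios to microglia of 0.85 (0.60 to 1.18) and 1.04 (0.85 to 1.25). Other macrophages held 69.4 CPM (56.0 to 85.0) and 86.7 CPM (81.7 to 92.0), 1.68-fold and 1.57-fold lower than microglia; among pan-myeloid cells of the control library the difference was 1.41-fold. Between microglia ranked high and low by the marker sum, the Tgfbr2 ratios were 0.91 (0.82 to 1.02) and 1.07 (0.99 to 1.15).

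Tgfb1, the ligand, differed by under 1.5-fold between the classes and was lower in microglia of the light-damaged library. It lies on chromosome 7 (mm10 positions 25687002 to 25705077, plus strand). Microglia held 294 CPM (285 to 302) and 225 CPM (220 to 231), 1.30-fold lower (1.26 to 1.35) in the light-damaged library. Within bands of the marker sum Tgfb1 was 1.22-fold lower (1.15 to 1.29) at 30 to 60 and 1.19-fold lower (1.11 to 1.29) at 60 to 100. In the smaller bands it was within counting error, with ratios of 0.96 (0.77 to 1.20) at 20 to 25 and 1.01 (0.80 to 1.28) at 25 to 30. Perivascular macrophages held 261 CPM (212 to 319) and 234 CPM (201 to 270), within counting error of microglia in both libraries. Other macrophages held 231 CPM (206 to 258) and 192 CPM (184 to 200). In their pan-myeloid cells Tgfb1 was at 289 CPM in the control, level with microglia (ratio 0.98, 0.87 to 1.10), and at 193 CPM in the light-damaged library, 1.50-fold lower (1.32 to 1.68). With stricter class limits, under 5 marker UMIs of either set, the direction over the class turned, to a log2 ratio of 0.24.

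Smad3, an effector of the TGF-beta receptors, was scarce in every class. Its gene lies on chromosome 9 (mm10 positions 63646767 to 63757994, minus strand). Microglia held 14.7 CPM (12.9 to 16.7) and 15.5 CPM (14.2 to 16.9), a ratio of 1.06 (0.90 to 1.24), and 3.65% and 4.36% of them had a UMI at 2700 UMIs per cell. Perivascular macrophages held 8 and 6 Smad3 UMIs, 21.6 CPM (9.31 to 42.5) and 7.54 CPM (2.77 to 16.4). Other macrophages held 13 and 104 UMIs, 9.70 CPM (5.16 to 16.6) and 8.16 CPM (6.66 to 9.88). In the light-damaged library this was 1.90-fold lower (1.54 to 2.37) than in microglia; the control counts did not allow the comparison (1.52-fold lower, 0.87 to 2.89). Their pan-myeloid cells held 12.2 and 8.01 CPM.

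The promoters of Tgfbr1 and Tgfb1 are shown because both genes were lower in light-damaged microglia. Of the members, 6 of 7 had an entry in the RefSeq promoter table (GRCm38.p6), and windows that touch an annotated exon are not printed. For Tgfbr1, which has 2 listed starts, the window at the start of the annotated gene was taken. Both sequences are the 250 bases before the start of the gene, 5′ to 3′ on its strand, at chr4:47352972-47353221 (plus) and chr7:25686752-25687001 (plus). Capitals mark GGGCGG, the Sp1 box, or its reverse complement CCGCCC.
Tgfbr1: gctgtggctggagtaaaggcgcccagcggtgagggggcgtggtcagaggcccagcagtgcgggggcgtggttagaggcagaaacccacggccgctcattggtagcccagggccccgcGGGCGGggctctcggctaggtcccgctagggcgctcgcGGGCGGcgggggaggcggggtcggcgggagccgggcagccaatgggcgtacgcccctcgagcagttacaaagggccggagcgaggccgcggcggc
Tgfb1: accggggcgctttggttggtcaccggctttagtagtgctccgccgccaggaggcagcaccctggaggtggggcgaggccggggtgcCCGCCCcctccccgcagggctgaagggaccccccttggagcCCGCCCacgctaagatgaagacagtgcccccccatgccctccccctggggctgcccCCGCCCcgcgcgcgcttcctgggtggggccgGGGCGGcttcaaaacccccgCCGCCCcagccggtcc
The Tgfbr1 window held 2 such boxes and the Tgfb1 window 5. At least 1 was found in 32.7% of 32851 promoter windows of that length. The bases G and C made up 74.8% of the Tgfbr1 and 75.2% of the Tgfb1 window, against a median of 52.4% over all windows. The part of base composition in the number of boxes was not tested. On both strands of the Tgfbr1 and Tgfb1 windows, 4 other motifs were searched. They were GAGGAAGT, bound by PU.1 (2.44% of all windows), GTCTAGAC, a SMAD palindrome (0.167%), CAGACA, the CAGA box (17.1%), and TGAGTCA, an AP-1 site (4.46%). None was present in either printed window. The window at the other listed Tgfbr1 start, which is not printed, held a CAGA box at position -203 from that start.

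More members passed 1.5-fold against microglia than between the libraries in microglia, and the same held for the share of all genes. In perivascular macrophages against microglia, 3 of 6 members were lower in the control library, where 39.2% of all genes were lower and 16.7% higher (56.0% in all), and 3 of 5 in the light-damaged library, where 31.0% were lower and 15.7% higher (46.6% in all). The 3 were Cx3cr1, Csf1r and Tgfbr1 in both, and of 5021 genes 23.2% were lower and 11.2% higher in both libraries (34.4% in all). In other macrophages 4 of 5 were lower than in microglia, Tgfbr2 as well, beside 25.9% of genes lower in the control library (50.9% in either direction) and 17.7% lower and 13.5% higher in the light-damaged library (31.2% in all). Of 5022 genes, 12.4% were lower and 7.93% higher in both libraries (20.3% in all). Among pan-myeloid other macrophages of the control library Tgfbr2 was 1.41-fold lower than in microglia, under the threshold. No member was over 1.5-fold higher than in microglia in either library among those that reached 20 CPM. Between the libraries, 0 of 5 microglial members passed 1.5-fold, where 12.1% of 5224 genes did, and their median log2 ratio was -0.12 beside -0.02 for all genes. In perivascular macrophages 1 of 6 passed, Smad3, which was 2.86-fold lower (0.87 to 10.0) on 8 and 6 UMIs, where 37.2% of 5020 genes passed, 16.1% lower and 21.1% higher. Without the barcode with the most UMIs of each member both Smad3 levels lay under 20 CPM and the count was 0. Under stricter class limits the count was 5, on 16 control and 23 light-damaged cells.

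**Figure D4:**
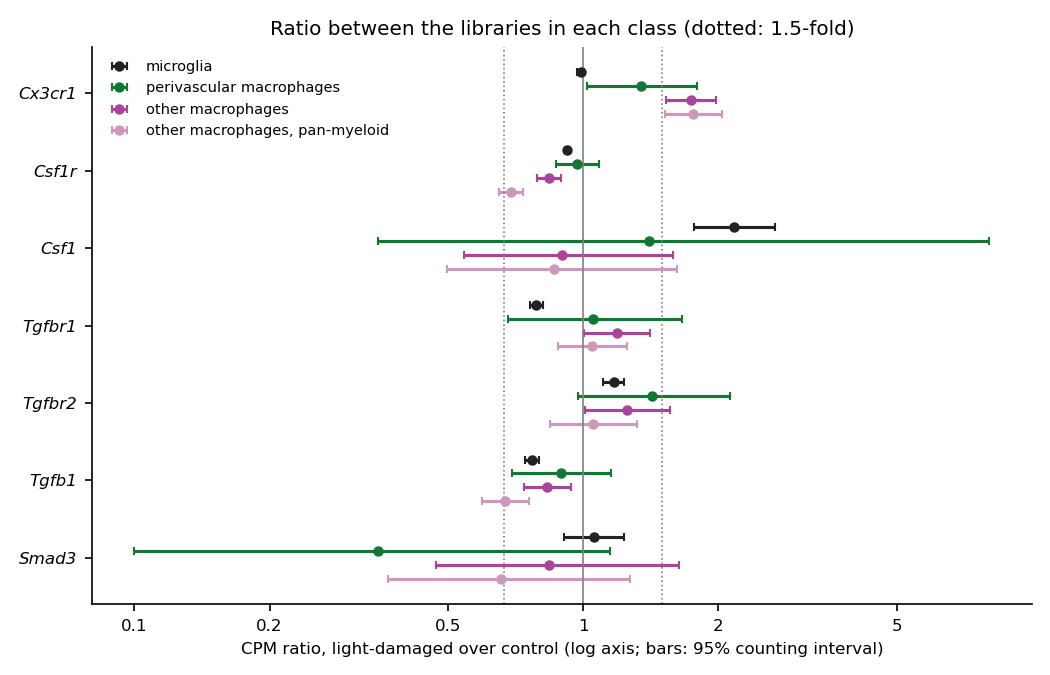
CPM ratio of the light-damaged over the control library (horizontal log axis) for each gene (rows) in the 3 classes and in pan-myeloid other macrophages, with bars for the 95% counting interval and dotted lines at 1.5-fold. The microglial ratios, in black, lie within 1.5-fold except for Csf1 at 2.16, and Cx3cr1 in other macrophages lies at 1.74.

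The genes whose levels over the 6 combinations of class and library lay closest to a member were found among 3419 genes by Pearson correlation of log2(CPM + 10). These correlations are descriptions over 6 points that share libraries and depth. For Cx3cr1 they were Slc44a2 (r = 0.995), Prcp and Apbb1ip, and for Csf1r they were Snn (r = 0.999), Serinc3 and Tmem59. For Tgfbr1 they were Lactb (r = 0.997), Clptm1 and Golm1, and for Tgfbr2 Zmiz1 (r = 0.963), Dock2 and Fcgr3. Tgfb1 was closest to Jun (r = 0.987), Soga1 and Lmo2, and Jun ran from 4123 CPM in control to 1801 CPM in light-damaged microglia. Smad3 was closest to Rcbtb2 (r = 0.970), BC017643 and Bcl7b, and Csf1 to mt-Co2 (r = 0.987), mt-Co3 and mt-Atp6, both members resting on few UMIs.

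The other ligands of these receptors were almost missing from the sorted cells. Control and light-damaged microglia held 2 and 3 UMIs of Cx3cl1, 0 (which allows up to 3) and 1 of Il34, 13 and 16 of Tgfb2, and 1 and 2 of Tgfb3. Of these, Tgfb2 had 43 UMIs in control other macrophages, 32.1 CPM, against 28 UMIs or 2.20 CPM in the light-damaged ones; rod genes summed to 15402 and 326 CPM in the same cells, and their part in this was not tested.

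Around the receptors, most pathway genes of microglia lay within 1.5-fold between the libraries. This held for all 8 tested genes of the fractalkine axis, including the shedding protease Adam10 (79.8 and 102 CPM), for all 19 tested genes of the CSF1R signal relay (median log2 ratio 0.00), and for all 4 tested TGF-beta family receptors. In the background, 5.42% of microglial genes were over 1.5-fold higher and 6.7% lower. Among CSF ligands and receptors 1 of 3 was higher, Csf2rb, the shared beta chain of related cytokine receptors, at 27.6 and 41.8 CPM (ratio 1.52, 1.36 to 1.69). Of 7 transcription factors known at the Csf1r gene, 1 passed: Cebpa was 5.05-fold lower (4.74 to 5.38), at 213 CPM in control and 42.2 CPM in light-damaged microglia. The myeloid master regulator Spi1, encoding PU.1, was at 430 and 450 CPM, and Irf8 at 583 and 618 CPM.

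Genes that respond early to TGF-beta were the list with the most microglial members past 1.5-fold, 5 lower and 1 higher of 12. Of all microglial genes, 6.7% were lower and 5.42% higher. Smad7, the inhibitory SMAD that TGF-beta induces, was 2.47-fold lower (2.34 to 2.61), at 181 CPM in control and 73.3 CPM in light-damaged microglia. Klf10, a TGF-beta-inducible transcription factor, was at 108 and 46.9 CPM, 2.29-fold lower (2.14 to 2.46). Rhob and Junb, named after their values were seen, were 2.07-fold and 1.55-fold lower. Cdkn1a, encoding the cell cycle inhibitor p21, went the other way, with 40.7 and 117 CPM (ratio 2.88, 2.65 to 3.13). The list's median log2 ratio was -0.25 beside -0.02 for all genes.

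Several of these targets also answer to acute stimuli, and the 8 immediate-early genes, of which Junb is one, summed to 10137 CPM in control and 6093 CPM in light-damaged microglia. Compared between lower tertiles of microglia by that sum, Smad7 was 2.34-fold lower (2.10 to 2.60) and Klf10 2.95-fold lower (2.52 to 3.45) in the light-damaged library. Compared between upper tertiles, the values were 2.23-fold and 1.76-fold lower. Some other targets varied more. Junb was 1.96-fold lower between lower and 1.39-fold lower between upper tertiles, and Skil 1.07-fold and 1.24-fold lower. Id2 was 1.10-fold lower in the first and 1.29-fold higher in the second comparison. Not every target was lower: Pmepa1 had light-damaged over control ratios of 1.02 between lower and 1.08 between upper tertiles, and Ski 1.18 and 1.11. Cdkn1a was higher in both comparisons (ratios 3.74 and 2.84), and Rhob was lower in both (2.12-fold and 1.93-fold). The tertiles were cut within each library and do not match immediate-early levels between the libraries, as Junb itself shows, so the part of these levels in the lower targets was not tested.

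Microglial genes known to depend on TGF-beta showed no shared direction, with 2 of 13 higher and 1 lower. Among all microglial genes 5.42% were higher and 6.7% lower. Fcrls, an Fc receptor-like gene of microglia, was 4.32-fold higher (4.06 to 4.60), at 66.4 CPM in control and 287 CPM in light-damaged microglia. Sparc, a matricellular protein, was at 1898 and 2990 CPM (ratio 1.57), and the fructose transporter Slc2a5 at 124 and 77.0 CPM, 1.62-fold lower. Sall1, a transcription factor that marks microglia, was at 107 and 125 CPM. Fcrls was not restricted to microglia and was lower in them than in both other classes of each library. Perivascular macrophages held 633 CPM in the control and 535 CPM in the light-damaged library, and other macrophages 283 and 341 CPM.

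In the remaining TGF-beta lists single genes passed 1.5-fold, where 12.1% of all microglial genes passed in either direction. The counts of 1 of 7 and 1 of 10 are near that share. Itgb5, an integrin subunit that can help release latent TGF-beta, was at 126 and 230 CPM in microglia (ratio 1.82), 1 of 7 tested genes of ligand storage and activation. Nrros, which tethers latent TGF-beta 1 on microglia, was at 96.6 and 82.7 CPM, and was higher in perivascular macrophages, at 186 and 167 CPM. Of 10 SMADs and their regulators 1 passed, Smad7 again. Of 5 genes in the receptor's MAPK branch, Tab2 was higher (49.2 and 75.9 CPM) and Mapk14, encoding p38 alpha, lower (72.7 and 43.0 CPM).

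**Figure D5:**
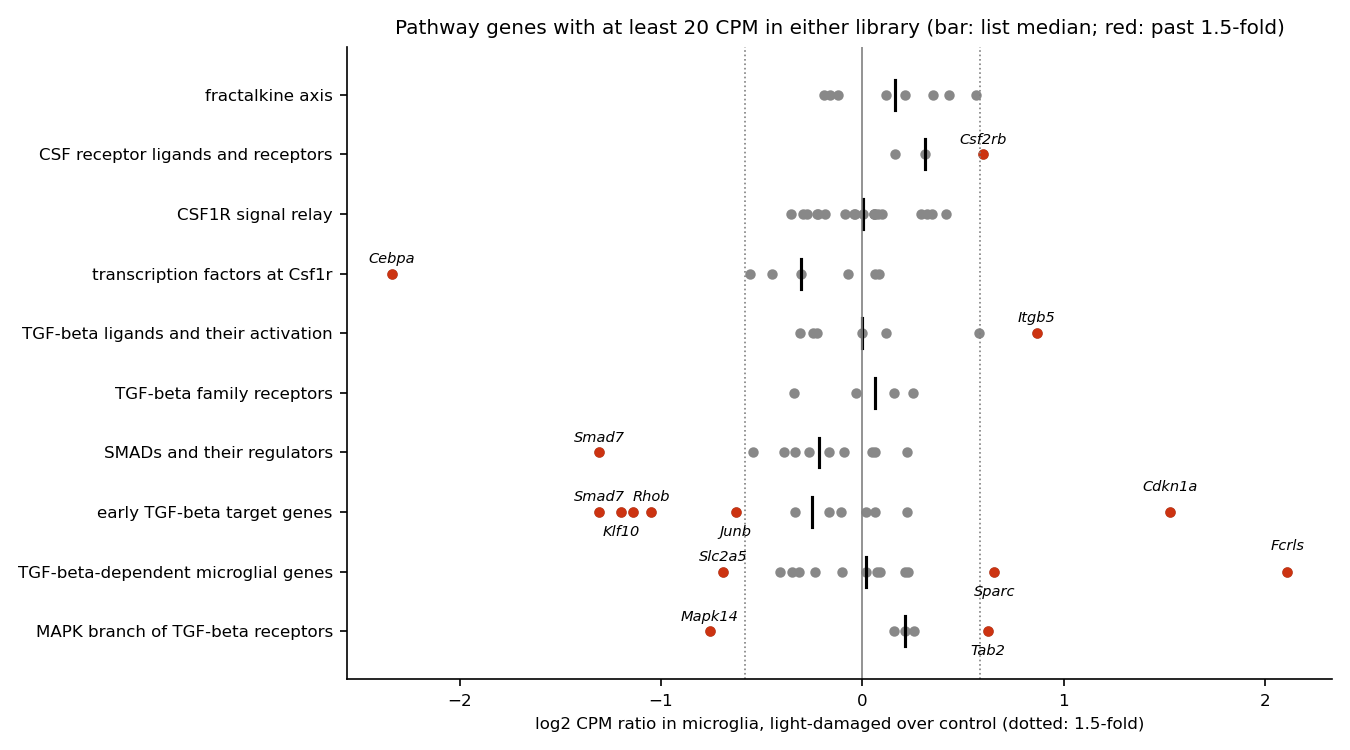
Log2 CPM ratio in microglia, light-damaged over control (horizontal axis), of every pathway gene with at least 20 CPM in either library, 1 row per list, with the list's median as a black bar, 1.5-fold as dotted lines and genes past it in red, those described in the text by name. Smad7 lies at -1.31, Klf10 at -1.20, Cebpa at -2.34 and Fcrls at 2.11.

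In the other classes, 7 of 15 tested early TGF-beta targets were lower, 1 was higher and 7 lay within 1.5-fold in perivascular macrophages, where 16.1% of genes were lower. In other macrophages 10 of 17 were lower, 1 was higher and 6 lay within 1.5-fold, where 28.4% were lower. Smad7 was at 72.8 and 16.3 CPM in perivascular and at 60.4 and 33.9 CPM in other macrophages. Tgfbi, a secreted matrix protein, was lower in perivascular macrophages (447 and 293 CPM) and higher in other macrophages (169 and 419 CPM). The immediate-early genes differed the same way in these classes, from 13297 to 9020 CPM in perivascular and from 10150 to 4907 CPM in other macrophages, and their part in the lower targets was not tested there.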

How the data were processed

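The authors deposited UMI counts per gene and cell barcode for each library, whole numbers that were not normalized. Per the submitters' processing notes they used Cell Ranger 2.0.0 and build mm10; how reads were filtered is not given in the sources used here. Cells were kept at 300 genes or more and at most 10% mitochondrial UMIs. The automatic threshold of Scrublet (scanpy 1.11.5) called 0 and 1 doublets, so the highest scores were removed at 0.8% per 1000 barcodes, 128 control and 372 light-damaged. The libraries held 20056338 and 58187149 UMIs in 4003 and 6821 barcodes. Counts were summed per class and library; intervals (scipy 1.17.1) cover counting error only, and the interval functions were tested on simulated data. With 1 library per group no model was fitted across genes.

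The members, lists and class limits were chosen with earlier results of these data known. Named pathway genes are up to 3 per list and direction with the largest difference past 1.5-fold in microglia. The 10 pathway lists come from textbook knowledge; 1 listed name was not matched, and some listed genes enter the counts but are not reported here. Tertiles are ranges, not cell types. Gene positions are from GENCODE vM21 and promoter sequences from RefSeq, both on GRCm38.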

Additional observations from a re-analysis of the deposited data

Results flagged for a closer look

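Tgfbr1 differed in opposite directions between the libraries in 2 classes. The light-damaged over control ratio was 0.786 (0.760 to 0.812) in microglia and 1.19 (1.01 to 1.41) in other macrophages. The difference between these ratios was not tested, since each class comes from the same pair of libraries. Among pan-myeloid other macrophages the ratio was 1.05 (0.88 to 1.25), and among microglia with 30 to 60 and 60 to 100 marker UMIs per 10000 it was 0.97 (0.92 to 1.02) and 0.98 (0.92 to 1.04). These bands take different parts of the libraries, since the marker sum was itself lower in light-damaged microglia.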

How the results depend on the processing

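Each result was recomputed under up to 17 other settings, and 2 more were added after seeing the data. The microglial count of 0 members past 1.5-fold became 1 with a minimum of 5 CPM. The perivascular count of 1 became 5 with stricter class limits, 3 with thinned cells, 2 without barcodes found in both libraries and 0 without the barcode with the most UMIs of each member. Those stricter limits left 16 control and 23 light-damaged perivascular macrophages, with 3 and 2 Smad3 UMIs. The count of 1 in other macrophages became 3 with stricter limits, 2 with thinned cells and 0 without cells carrying rod transcripts. The count of 4 members lower in other macrophages than in microglia of both libraries became 3 without cells carrying rod transcripts. With a minimum of 5 CPM it became 5. The median log2 ratio of all pathway genes in microglia, -0.0027, became 0.098 with totals that leave out mitochondrial and ribosomal protein genes. Under that scaling the Cx3cr1 log2 ratio in microglia was 0.08 in place of -0.02. The log2 ratio of Smad3 between other macrophages and microglia of the control library turned from -0.60 to 0.027 with thinned cells. The log2 ratio of Csf1 in microglia ran from 0.57 with 10 CPM added to 1.21. The cause of these shifts was not tested. Of the remaining values, 774 stayed within their counting interval or 1.5 times the count and 111 moved beyond it. No paired analysis was possible because each group has 1 library, and no library could be left out. Depth limits Csf1 and Smad3 everywhere and every member in the 53 and 84 perivascular macrophages.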
